A study of Mus musculus with 8 samples.

Results

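The receptors of the neurotrophins and of the GDNF family ligands were read in 8 mouse tumours as 9 genes of 22180 on the array: the Trk receptors Ntrk2 (TrkB) and Ntrk3 (TrkC), the low affinity neurotrophin receptor Ngfr (p75), its sorting partner Sort1 (sortilin), the receptor tyrosine kinase Ret, and the ligand-binding coreceptors Gfra1, Gfra2, Gfra3 and Gfra4. The genes were named by symbol, with earlier results of these data known. Each was read from the probe set with the highest mean among those annotated to that symbol only. All 9 had a value. On every array total RNA of a single primary tumour, grown under the skin, was hybridised. The cells of origin were N-Myc transduced mouse neural crest cells (NCCs), designated N-Myc; p53mixed because p53+/- and p53-/- cells were mixed. About 10000 of them were injected 48 hours after infection, and tumours were removed after about 50 days. The hosts of the grafts were either nude mice or C57Bl/6 mice. The host of a given tumour, the p53 genotype of its cells and whether tumours came from separate animals or cultures are not in the labels. All 8 tumours carry the same tissue label and form 1 group (n = 8), so no groups were compared. The tests below set levels against array background or relate genes to each other over these samples.

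Neurotrophins bind Trk receptors, whose kinase domains signal survival and axon growth, and they also bind p75, which signals alone or together with Trk receptors and sortilin. GDNF family ligands act through a pair of proteins, a GFR alpha coreceptor held in the membrane by a lipid anchor, which selects the ligand, and Ret, which carries the kinase. GDNF binds chiefly Gfra1, neurturin Gfra2, artemin Gfra3 and persephin Gfra4. Sympathetic neurons and their precursors depend on these receptors in sequence, and in human neuroblastoma the set of Trk receptors expressed is known to differ between tumours of low and high risk.

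Values are log2 levels from RMA, so a difference of 1 is a doubling. Array medians lay between 5.63 and 5.75. The background of an array was set by 1435 probe sets for odorant (Olfr), pheromone (Vmn1r and Vmn2r) and bitter taste (Tas2r) receptors, at their 95th percentile, and lay between 5.45 and 5.66, with a mean of 5.59. A gene was called above background where its mean over the tumours exceeded this level with an adjusted p under 0.05 (limma, Benjamini-Hochberg over all genes). Of the 16 listed markers of sympathetic neuroblasts 13 were measured, and all 13 were above background, against 57.3% of all genes. Tumour 6 stood apart: Dbh, which makes noradrenaline, was at 5.72 there and between 9.87 and 11.43 in the others. The crest and glial factor Sox10 was at 8.32 in tumour 4 and 8.05 in tumour 6 and between 5.43 and 6.30 in the others. These are bulk samples, in which fewer cells of a type and less RNA per cell cannot be told apart.

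Of the 9 receptor genes, 8 were above background, against 57.3% of all genes tested (12699 of 22180). Ngfr was the gene that was not called. The median distance above background was 2.49 for the 9 receptors and 0.68 for all genes. The receptors also differed widely between tumours. A range of at least 2 between the highest and the lowest tumour was reached by 5 receptors, against 4.46% of the genes above background. The 5 were Ntrk2, Ntrk3, Ret, Gfra1 and Gfra3. A range of 2 is a 4-fold difference in level, but the lowest tumour of Ntrk2 was not above background. The number of receptors was 4 with a gene's probe sets averaged, 3 without tumour 6 and 2 (Ntrk2 and Gfra3) without tumours 4 and 6. There is 1 array for each tumour and no technical replicate, so no difference between single tumours was tested, and the order of neighbouring tumours has no error estimate.

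**Figure D1:**
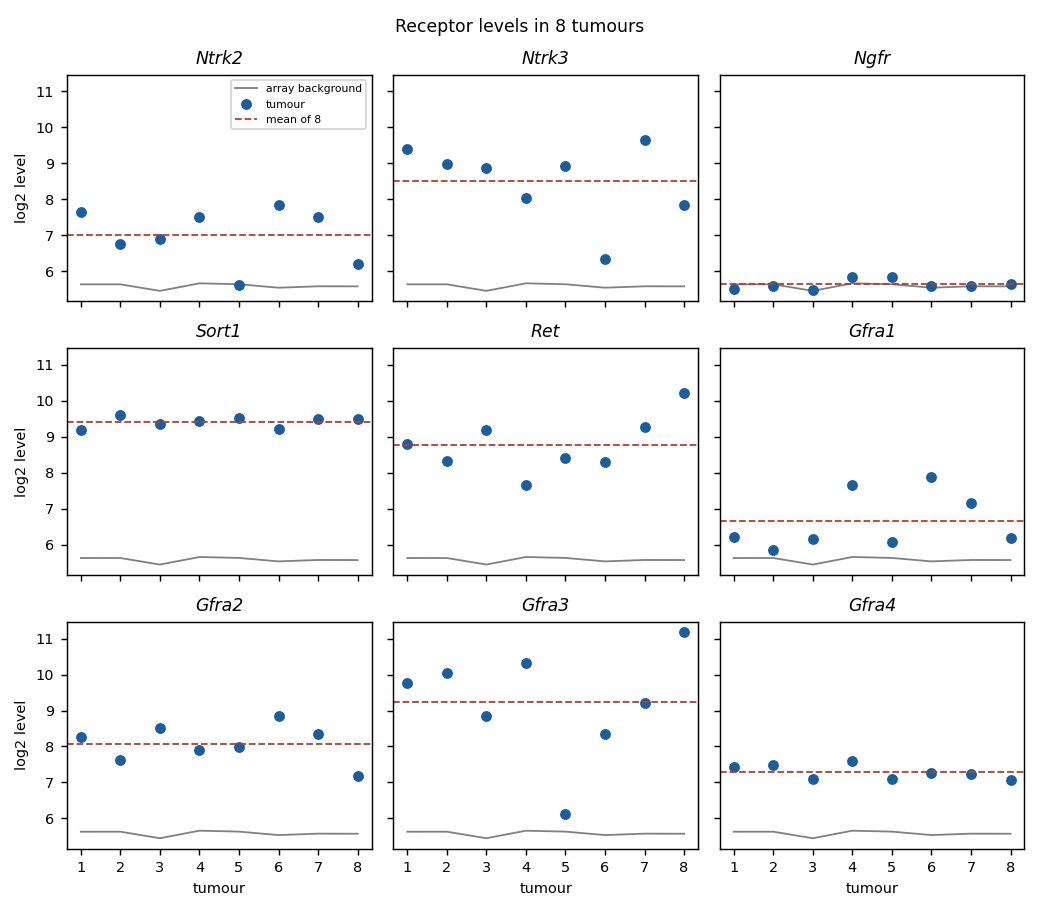
Log2 level (vertical axis) of each receptor in tumours 1 to 8 (horizontal axis). Points are single tumours, the dashed line is the mean of the 8 tumours and the grey line is the background of each array; Ngfr lies along the background in every tumour, while Gfra3 runs from 6.13 in tumour 5 to 11.18 in tumour 8.

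Ntrk2, on chromosome 13 in the RefSeq gene table of GRCm38.p6, encodes TrkB, the receptor of brain-derived neurotrophic factor. Its level was 7.63, 6.76, 6.91, 7.50, 5.61, 7.84, 7.49 and 6.19 in tumours 1 to 8. Tumour 5 was at its array background and tumour 8 was next lowest, while tumours 1, 4, 6 and 7 lay within 0.35 of each other at the top. The mean was 6.99 ± 0.78 (SD, n = 8), which is 1.40 ± 0.24 (SE) above background (limma, adjusted p = 0.000269), with 7 of 8 tumours above. The lowest tumour was not above background, so no fold between tumours is given. Of the genes above background, 97.0% had a smaller SD. Without tumour 5 the range fell from 2.23 to 1.65.

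Ntrk3, on chromosome 7, encodes TrkC, the receptor of neurotrophin 3. Its level was 9.41, 8.98, 8.87, 8.03, 8.91, 6.33, 9.64 and 7.84 in tumours 1 to 8. Tumour 6 was lowest by 1.51, tumours 8 and 4 came next, and the other 5 lay between 8.87 and 9.64. The mean was 8.50 ± 1.07 (SD, n = 8), which is 2.91 ± 0.33 (SE) above background (limma, adjusted p = 1.23e-05), and all 8 tumours were above. The highest and lowest tumours differed 9.87-fold. Without tumour 6 the range was 1.80 in place of 3.30 and the SD 0.66. Tumour 6, lowest in Ntrk3, had the highest Ntrk2, and over the 8 tumours the relation between both Trk genes was weak (Pearson's r = -0.19, exact permutation p = 0.652, adjusted p = 0.922; Spearman's rho = -0.10, exact permutation p = 0.840).

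Ngfr, on chromosome 11, encodes p75, which is abundant on migrating neural crest and on Schwann cells. Its level was 5.50, 5.58, 5.47, 5.83, 5.84, 5.59, 5.58 and 5.66 in tumours 1 to 8. No tumour was more than 0.21 above the mean of 8, and the values overlapped the background of their arrays, with 6 tumours above it and 2 not. The mean of 5.63 ± 0.14 (SD, n = 8) lay 0.04 ± 0.05 (SE) above background (limma, adjusted p = 0.439). The call depended on the background chosen: against the 90th percentile of the background probe sets Ngfr was 0.65 above (limma, adjusted p = 8.05e-08). In tumours 4 and 6 Ngfr was at 5.83 and 5.59, where Fabp7, a lipid-binding protein gene of glia, was at 12.03 and 11.51 against 6.24 to 8.96 in the others.

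The start regions of Ngfr and Ntrk2 are shown as those of a receptor that was not called and another that was. Whether these stretches bear on the calls was not tested. Sequences are from RefSeq, build GRCm38.p6, 5′ to 3′ on the strand of the gene, and end at the last base before the annotated gene, which is 250 bases for Ngfr (chr11:95587699-95587948, minus strand) and 153 bases for Ntrk2 (chr13:58806319-58806471, plus strand). Capitals mark matches to GGGCGG, the GC box bound by Sp1, on either strand.
Ngfr: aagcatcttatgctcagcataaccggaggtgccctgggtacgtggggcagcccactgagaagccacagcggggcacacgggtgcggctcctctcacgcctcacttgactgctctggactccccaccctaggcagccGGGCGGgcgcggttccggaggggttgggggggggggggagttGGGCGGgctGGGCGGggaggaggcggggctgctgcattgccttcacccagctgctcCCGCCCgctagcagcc
Ntrk2: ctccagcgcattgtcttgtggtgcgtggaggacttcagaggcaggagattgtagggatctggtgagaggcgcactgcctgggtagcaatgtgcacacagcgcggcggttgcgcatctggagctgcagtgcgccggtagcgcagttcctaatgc
G and C made up 70.4% of the Ngfr stretch, with 16 CpG pairs, and 60.8% of the Ntrk2 stretch, with 10. The Ngfr stretch held 4 GC boxes and that of Ntrk2 held 0; 32.7% of all 32851 RefSeq start regions hold at least 1 in the 250 bases before the start. The E-box CACGTG, to which Myc proteins bind with Max, matched in none of the 250-base windows of the 4 receptors listed in that table (Ntrk2, Ngfr, Gfra1 and Gfra4), against 6.02% of all windows. The match of GATAA (22.6% of all windows) and of the EGR motif GCGTGGGCG (0.536%) was also absent from these windows, and ACAAAG, a SOX motif (16.5%), matched once, in 1 of the windows of Gfra4. None of these motifs overlaps another in the stretches printed.

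Sort1, on chromosome 3, encodes sortilin, which sorts proteins in the Golgi and forms a receptor for unprocessed neurotrophins together with p75. Its level was 9.20, 9.61, 9.34, 9.45, 9.52, 9.21, 9.50 and 9.50 in tumours 1 to 8, all within 0.41. The mean was 9.42 ± 0.15 (SD, n = 8), which is 3.83 ± 0.06 (SE) above background (limma, adjusted p = 3.63e-14). Only 17.7% of the genes above background had a smaller SD. A second Sort1 probe set was at 5.88 ± 0.19 (SD, n = 8), near background, so the probe sets of this gene disagree in level. Sort1 was called, and p75, with which sortilin forms that receptor, was not.

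Ret, on chromosome 6, is the kinase shared by the GDNF family coreceptors. Its level was 8.81, 8.33, 9.20, 7.67, 8.42, 8.29, 9.27 and 10.21 in tumours 1 to 8. Tumour 8 was highest by 0.93 and tumour 4 lowest by 0.62, and the other 6 lay between 8.29 and 9.27. The highest tumour was 5.80-fold over the lowest, and the mean lay 3.19 ± 0.25 (SE) above background (limma, adjusted p = 4.83e-07). The range was 2.54, and it was 1.61 without tumour 8 and 1.91 without tumour 4.

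Gfra1, on chromosome 19, encodes the coreceptor for GDNF. Its level was 6.21, 5.86, 6.16, 7.65, 6.09, 7.87, 7.16 and 6.20 in tumours 1 to 8. The tumours split into 3 with higher levels (6, 4 and 7) and 5 between 5.86 and 6.21, with a gap of 0.95 between them. The mean was 6.65 ± 0.79 (SD, n = 8), which is 1.06 ± 0.24 (SE) above background (limma, adjusted p = 0.0019). A second probe set was at 3.87 ± 0.24 (SD, n = 8), and a further one, annotated to Gfra1 and Gm10007 together, at 6.38 ± 0.23; the mean of the Gfra1-only probe sets lay below background, at -0.33 (limma, adjusted p = 0.0462). The call therefore rests on 1 probe set. Without tumours 4 and 6 the range was 1.30 in place of 2.01.

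Gfra2, on chromosome 14, encodes the coreceptor for neurturin. Its level was 8.26, 7.64, 8.50, 7.91, 7.99, 8.84, 8.34 and 7.17 in tumours 1 to 8. Tumour 6 was highest and tumour 8 lowest, a 3.18-fold difference, with the other values spread between them. The mean was 8.08 ± 0.52 (SD, n = 8), which is 2.49 ± 0.17 (SE) above background (limma, adjusted p = 3.84e-08).

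Gfra3, on chromosome 18, encodes the coreceptor for artemin, which acts on sympathetic and sensory neurons. Its level was 9.77, 10.05, 8.84, 10.32, 6.13, 8.35, 9.21 and 11.18 in tumours 1 to 8. Tumour 5 was lowest by 2.23, 0.49 above the background of its array, and tumour 8 was highest by 0.86. The highest tumour was 33.1-fold over the lowest. The mean was 9.23 ± 1.53 (SD, n = 8), which is 3.64 ± 0.48 (SE) above background (limma, adjusted p = 3.7e-05). Of the genes above background, 99.8% had a smaller SD. Without tumour 5 the SD was 0.96 and the range 2.82. Tumour 5, lowest in Gfra3 and in Ntrk2, was also the tumour with the highest keratinocyte markers: Krt14, a keratin of basal epidermis, was at 9.13 there and between 4.82 and 5.29 in the others, and Krt10, a keratin of upper epidermis, at 7.68 against 6.14 to 6.75. Of 4 measured keratinocyte genes 1 was above background over all tumours, against 57.3% of all genes. The part of these cells in the low levels was not tested.

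Gfra4, on chromosome 2, encodes the coreceptor for persephin. Its level was 7.43, 7.48, 7.11, 7.59, 7.08, 7.26, 7.23 and 7.07 in tumours 1 to 8. All tumours lay within 0.52, and 36.8% of the genes above background had a smaller SD. The mean was 7.28 ± 0.20 (SD, n = 8), which is 1.69 ± 0.07 (SE) above background (limma, adjusted p = 2.13e-10).

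The 4 coreceptors had different profiles beside Ret. In tumour 8, with the highest Ret, Gfra3 was 1.94 above its mean of 8, and Gfra1, Gfra2 and Gfra4 were 0.45, 0.91 and 0.21 below theirs. In tumour 4, with the lowest Ret, Gfra1 and Gfra3 were 0.9996 and 1.09 above their means. In tumour 6, Gfra1 and Gfra2 were 1.22 and 0.76 above their means and Gfra3 was 0.88 below. In tumour 5 the difference from the mean was -3.10 for Gfra3, -0.56 for Gfra1, -0.20 for Gfra4, -0.09 for Gfra2 and -0.35 for Ret.

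**Figure D2:**
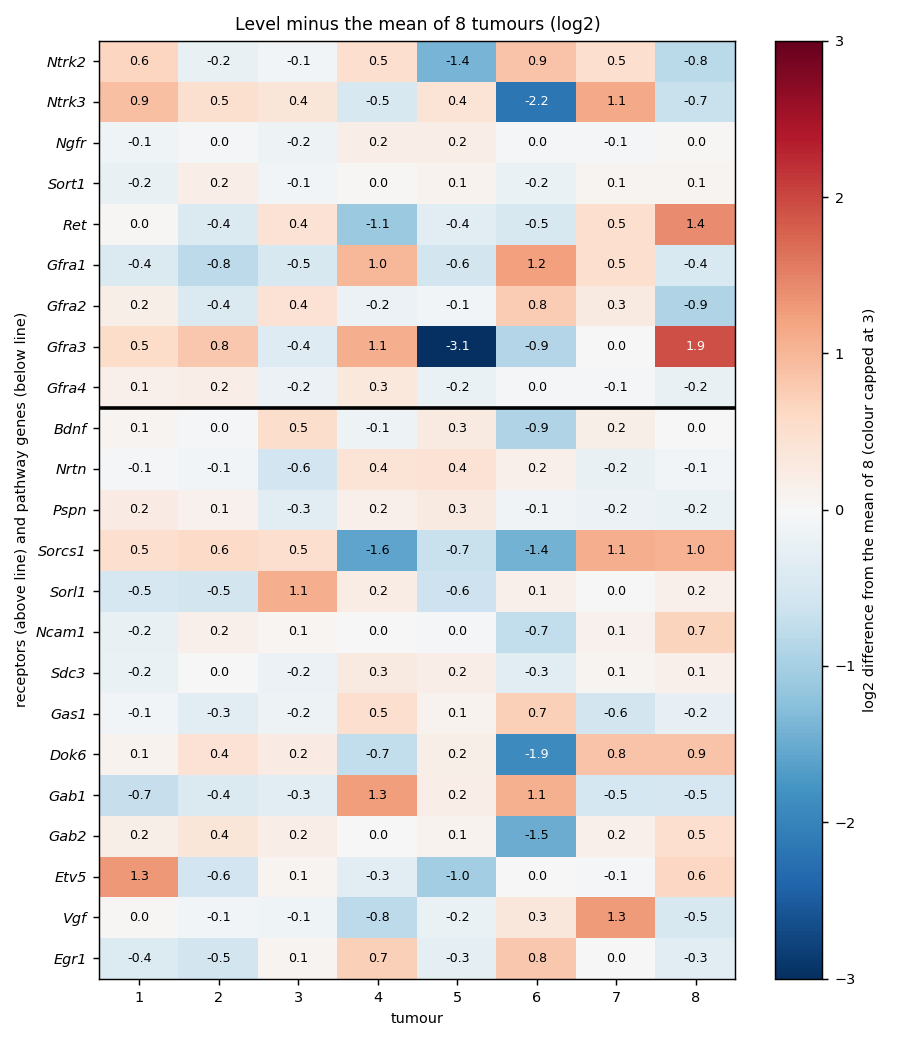
Log2 level of each gene (rows) in each tumour (columns) minus the mean of the 8 tumours, printed in each cell, with red above and blue below the mean. The 9 receptors are above the line and 14 ligands, partners, adaptors and response genes below it; the strongest cells among receptors are Gfra3 and Ntrk2 in tumour 5, Ntrk3 in tumour 6, and Ret and Gfra3 in tumour 8.

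The next comparison asks whether a coreceptor varied with Ret, or receptors with each other, over the tumours. Relations were computed for all 28 pairs of the 8 receptors above background, and 0 had an adjusted p under 0.05 and 0 an unadjusted p under 0.05 by Pearson's r (exact permutation of 40320 pairings, two-sided, Benjamini-Hochberg adjustment over the pairs). By Spearman's rho the lowest adjusted p was 0.321. The lowest unadjusted p by rho were those of Ntrk2 with Gfra1 (exact permutation p = 0.0218) and with Sort1 (rho = -0.76, exact permutation p = 0.0368). Ret with Gfra4 and Gfra2 with Gfra3, given below, were also under 0.05 before adjustment. Ret with Gfra4 gave r = -0.69 (exact permutation p = 0.0533, adjusted p = 0.571; rho = -0.74, exact permutation p = 0.0458), and r = -0.30 without tumours 4 and 8, the 2 farthest from the median of Ret. Leaving out both also narrows the range of Ret, so that value cannot show that the relation rests on them. Without tumour 4 alone r was -0.52, and without tumour 8 alone -0.62. Ret with Gfra3 gave r = 0.31 (exact permutation p = 0.457, adjusted p = 0.715; rho = 0.14, exact permutation p = 0.752), and r = 0.27 without the same tumours. Ret with Gfra2 gave r = -0.32 (exact permutation p = 0.436, adjusted p = 0.715; rho = -0.10, exact permutation p = 0.840), and r = 0.26 without them. The tumours form separate sets of 3 and 5 for Gfra1, too few to test within. Its pooled correlations enter the counts above but are not read as relations.

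The relation of Gfra2 with Gfra3 depended on tumour 5. Over all 8 tumours it was r = -0.49 (exact permutation p = 0.212, adjusted p = 0.674; rho = -0.74, exact permutation p = 0.0458), and r = -0.13 without tumours 6 and 8, the 2 farthest from the median of Gfra2, with tumour 5 still among the 6. Tumour 5, low in Gfra3 and near the mean in Gfra2, lay apart. Without tumour 5 the relation was r = -0.96 over 7 tumours (exact permutation p = 0.00139, adjusted p = 0.0389), and this was the only one of the pairs to pass when a single tumour was left out. That adjustment covers the pairs but not the choice among the tumours left out in turn. The value is therefore not read as a relation of these coreceptors.

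A further set of 48 relations set each of the 8 receptors against the mean centred level of 6 marker lists, to give the cell types whose genes move with a receptor. None had an adjusted p under 0.05 (lowest 0.125), and 5 had an unadjusted p under 0.05 (exact permutation, two-sided). These 5 were Sort1, Gfra2 and Gfra1 with the sympathetic neuroblast list and Gfra1 and Ntrk3 with the Schwann cell and glia list. The pooled values that involve Gfra1 or the glia list, for which the tumours fall into separate sets, had adjusted p of 0.215 (Gfra1 and Ntrk3 with glia) and 0.349 (Gfra1 with the sympathetic list), by exact permutation. Without tumours 4 and 6, Gfra1 gave r = 0.08 with the glia list and -0.18 with the sympathetic list (exact permutation p = 0.838 and 0.776, not adjusted). Tumour 7, also among those higher in Gfra1, remained, so these are not values within 1 set. By Spearman's rho the lowest adjusted p was 0.257. The lowest p was that of Sort1 with the sympathetic neuroblast list, despite the small range of Sort1 (r = 0.80, exact permutation p = 0.0026, adjusted p = 0.125; rho = 0.86, exact permutation p = 0.0107), and r was 0.91 without tumours 1 and 6. Without tumour 1 alone r was 0.95 over 7 tumours (exact permutation, adjusted p = 0.0381), and with the mean of both Sort1 probe sets it was 0.56 (exact permutation, adjusted p = 0.759). Tumour 1 was the only single tumour without which a relation with a list passed. The adjustment does not cover that choice, and without tumour 2 r was 0.76 (exact permutation, adjusted p = 0.483). Gfra2 gave a negative correlation with the same list (r = -0.79, exact permutation p = 0.018, adjusted p = 0.215; rho = -0.86, exact permutation p = 0.0107), with r = -0.72 without tumours 6 and 8.

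The correlation of Ntrk3 with the sympathetic list rested on tumour 6. Over all 8 tumours r was 0.70 (exact permutation p = 0.0815, adjusted p = 0.488; rho = 0.29, exact permutation p = 0.501), and r was 0.18 without tumours 6 and 8 and -0.15 without tumour 6. The centred mean of that list was -1.93 in tumour 6 and between -0.23 and 0.81 in the others. For the Schwann cell and glia list, tumours 4 and 6 lay apart, at 1.36 and 1.12 against -0.79 to 0.06 in the other 6. Within those 6 tumours Ntrk3 gave r = -0.78 with the glia list (exact permutation p = 0.088, not adjusted). Ntrk2 with the sympathetic list gave r = -0.62 (exact permutation p = 0.0915, adjusted p = 0.488; rho = -0.76, exact permutation p = 0.0368), with r = -0.66 without tumours 5 and 8.

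**Figure D3:**
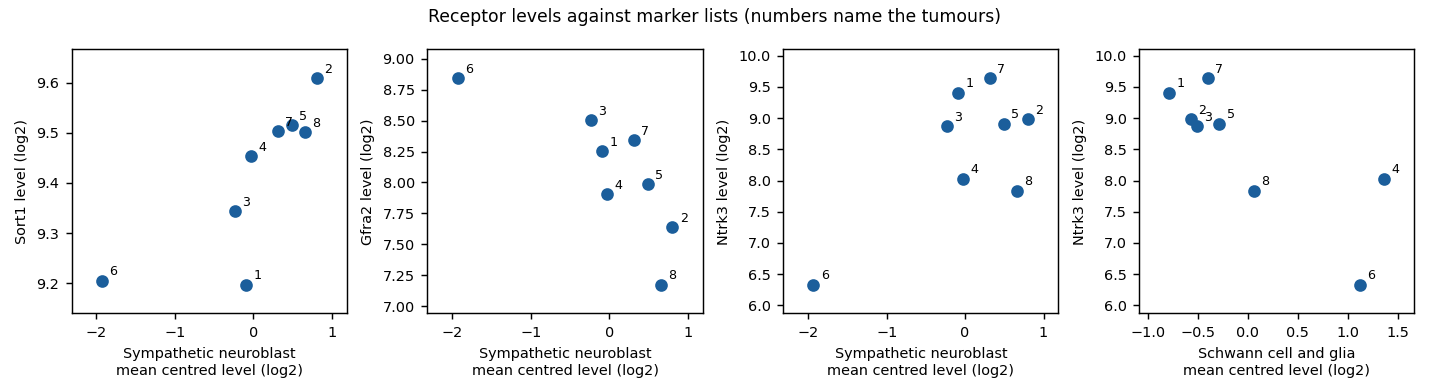
Log2 level of a receptor (vertical axis) against the mean centred log2 level of a marker list (horizontal axis), with each point 1 tumour, named by its number. Sort1 is higher to the right along the sympathetic list and Gfra2 lower (neither passed after adjustment), while the spread of Ntrk3 along that list comes from tumour 6. Tumours 4 and 6 lie apart along the glia list. In Ntrk3 tumour 6 (6.33) is lowest, while tumour 4 (8.03) lies above tumour 8 (7.84).

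The ligands of these receptors were measured in part. Of neurotrophins 1 of 2 measured was above background, against 57.3% of all genes: Bdnf, the ligand of TrkB, at 6.59 ± 0.42 (SD, n = 8; limma, adjusted p = 1.34e-05), highest in tumour 3 (7.12) and lowest in tumour 6 (5.69), the tumour with the highest Ntrk2. Ntf5, which encodes the other TrkB ligand, was at 4.10 ± 0.18. Of the GDNF family ligands 2 of 4 were above background. Nrtn (neurturin) was at 6.35 ± 0.34 (SD, n = 8; limma, adjusted p = 8.12e-06), between 5.78 in tumour 3 and 6.79 in tumour 5. Pspn (persephin) was at 6.13 ± 0.22 (SD, n = 8; limma, adjusted p = 7.63e-06), within 0.57 over the tumours. Gdnf (4.85 ± 0.27) and Artn, which encodes artemin (4.62 ± 0.11), were below background in all 8 tumours. Gfra1 and Gfra3, the coreceptors with the split and the widest profile, were called while the genes of their main ligands were not.

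Among Ret partners 3 of 4 measured genes were above background, against 57.3% of all genes. Ncam1, an adhesion molecule that binds GDNF with a GFR alpha, was at 11.37 ± 0.40, highest in tumour 8 (12.04) and lowest in tumour 6 (10.63). The heparan sulphate proteoglycan Sdc3, another receptor for GDNF family ligands, was at 9.56 ± 0.22, and Gas1, a protein related to the GFR alphas, at 6.32 ± 0.43, highest in tumours 6 (7.04) and 4 (6.83). Gfral, the GFR alpha-like receptor of Gdf15, was at 3.50 ± 0.15, below background in all tumours. All 10 measured genes of the p75 and sortilin partner list were above background, against the same 57.3%. Of these, Sorcs1, a sortilin family member, had the largest SD (8.86 ± 1.08) and was at 7.27 in tumour 4, 7.43 in tumour 6 and 8.18 or higher in the others. The p75-like gene Nradd was at 8.28 ± 0.42, and Sorl1, another sorting receptor, at 6.70 ± 0.56, with 7.80 in tumour 3.

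Processing enzymes and adaptors were nearly all above background. The list of ligand-processing and receptor-cleaving proteases had 6 of 6 measured genes called, with Adam10 (9.29 ± 0.29) and Adam17 (7.25 ± 0.36), which shed membrane proteins, both highest in tumour 6, and Pcsk6 (6.66 ± 0.41), a proprotein convertase, highest in tumour 4. Of Trk and Ret adaptors 17 of 20 were called. Dok6, which binds Ret, was at 6.50 in tumour 6, 7.68 in tumour 4 and between 8.51 and 9.28 in the others. Gab2, a docking protein, was at 8.90 in tumour 6 and between 10.37 and 10.89 in the others, whereas its relative Gab1 was highest in tumours 4 (9.24) and 6 (9.04) and between 7.29 and 8.19 in the others. All 13 feedback and immediate target genes were called. Etv5, a transcription factor induced by Ret signalling, ran from 6.10 in tumour 5 to 8.44 in tumour 1, Vgf, a neurotrophin-induced granule protein gene, from 7.17 in tumour 4 to 9.22 in tumour 7, and Egr1, an immediate early factor, was highest in tumours 6 (7.83) and 4 (7.74). Over the 7 pathway lists together, 52 of 59 measured genes (88.1%) were above background, against 57.3% of all genes. Of the 52, 4 had a range of at least 2, against 4.46% of all genes above background, and of the 8 receptors above background 5 did.

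Neurons of other kinds also use these receptors, and their markers were measured for that reason. Of 11 sensory neuron genes 4 (36.4%) were called, against 57.3% of all genes. Pou4f1, a defining sensory factor, was at 7.33 in tumour 6 and between 4.64 and 5.64 in the others, and Runx1 at 7.03 ± 0.43, highest in tumour 6 (7.66). Prrxl1 was lowest in tumour 6 (6.75) and between 8.09 and 9.11 in the others, and Neurog2 was at 6.49 ± 0.28. Of 6 cholinergic sympathetic genes 4 (66.7%) were called, near the share of all genes: Slc18a3, the vesicular acetylcholine transporter, ran from 7.23 in tumour 8 to 10.68 in tumour 6, Vip, a neuropeptide, was lowest in tumour 4 (6.24), and Tlx3 was lowest in tumour 6 (6.63). Chat, which makes acetylcholine, was at 7.21 in tumour 6 and between 5.02 and 6.04 in the others. Neither Chat nor Pou4f1 was called over the 8 tumours. Genes of both lists lay in opposite directions in tumour 6, the tumour lowest in Ntrk3, and the mean centred level there was 0.24 for the called cholinergic genes and -0.15 for the called sensory genes.

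The other marker lists differed in the share of genes called, which was 57.3% over all genes. Fibroblast and pericyte genes were called in 9 of 10 cases, macrophage genes in 7 of 8, Schwann cell and glia genes in 8 of 11 and endothelial genes in 6 of 8. Skeletal muscle genes were called in 6 of 10 cases (60.0%), near the share of all genes. T cell genes were called in 1 of 5, with Cd3e (5.01 ± 0.26) and Cd3d (4.74 ± 0.21) below background in all tumours. Acta1, skeletal muscle actin, ran from 7.03 in tumour 5 to 10.43 in tumour 6, and Ckm, muscle creatine kinase, from 5.91 in tumour 4 to 8.75 in tumour 6. Col1a1 (9.86 ± 0.56), Pecam1 (7.85 ± 0.38) and Csf1r (7.36 ± 0.38), of fibroblasts, endothelium and macrophages, were above background in all 8 tumours. Which cells carried each receptor was not measured, and the part of these lists in the receptor levels was not tested beyond the relations above.

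For the 6 receptors above background with an SD of at least 0.5, the genes with the most similar profile over the 8 tumours were listed from the 1190 such genes, as a description with no test, since the highest of many correlations over 8 points is high by selection. Ntrk2 was matched by Lrrtm1, a synaptic adhesion protein gene (r = 0.99), Gca (0.94), Nfib, a transcription factor (0.89), Adcyap1, the neuropeptide PACAP (0.88), and Ebf3, a factor of neuronal differentiation (0.86). Lrrtm1 was at 8.25 in tumour 1, 8.15 in tumour 6, 5.84 in tumour 5 and 6.52 in tumour 8, which are the high and low tumours of Ntrk2. Ntrk3 was matched by Chrna7, a nicotinic receptor subunit (r = 0.95), Zfhx4 (0.94), Grik1, a kainate receptor subunit (0.94), Gata3, a sympathetic transcription factor (0.93), and Stk26 (0.92). In these 5 genes, as in Ntrk3, tumour 6 was lowest, with Gata3 at 6.93 there and between 9.01 and 9.83 in the others.

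Ret was matched by Prkg1, a cGMP-dependent kinase (r = 0.96), Cdh8, a cadherin (0.91), Enox1 (0.91), Actn2, an actinin (0.90), and Zmat4 (0.87). Prkg1 was at 8.64 in tumour 8 and 5.91 in tumour 4, the tumours at either end for Ret. The genes ranked closest to Gfra1 were Nr4a1, an immediate early nuclear receptor, Frmd6, Pitpnm2, Fkbp9 and Sox10. What they share with it is high levels in tumours 4 and 6, where all 5 were highest, and since the tumours split for Gfra1 no r is printed for them. Nr4a1 was at 9.26 and 9.67 in these tumours and between 7.74 and 8.45 in the others. Gfra2 was matched by Pus10 (r = 0.96), Tle3, a corepressor (0.96), Trmt61a (0.92), Ccl11, a chemokine (0.91), and Crnde (0.91). Gfra3 was matched by the protocadherin gene Pcdhb4 (r = 0.94), Nap1l5 (0.93), Cadm3, an adhesion molecule (0.91), Ifi27 (0.89) and C130030K03Rik (0.88). All 5 were lowest in tumour 5 as Gfra3 was, but over a narrower range, as Pcdhb4 ran from 6.24 to 8.72.

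**Figure D4:**
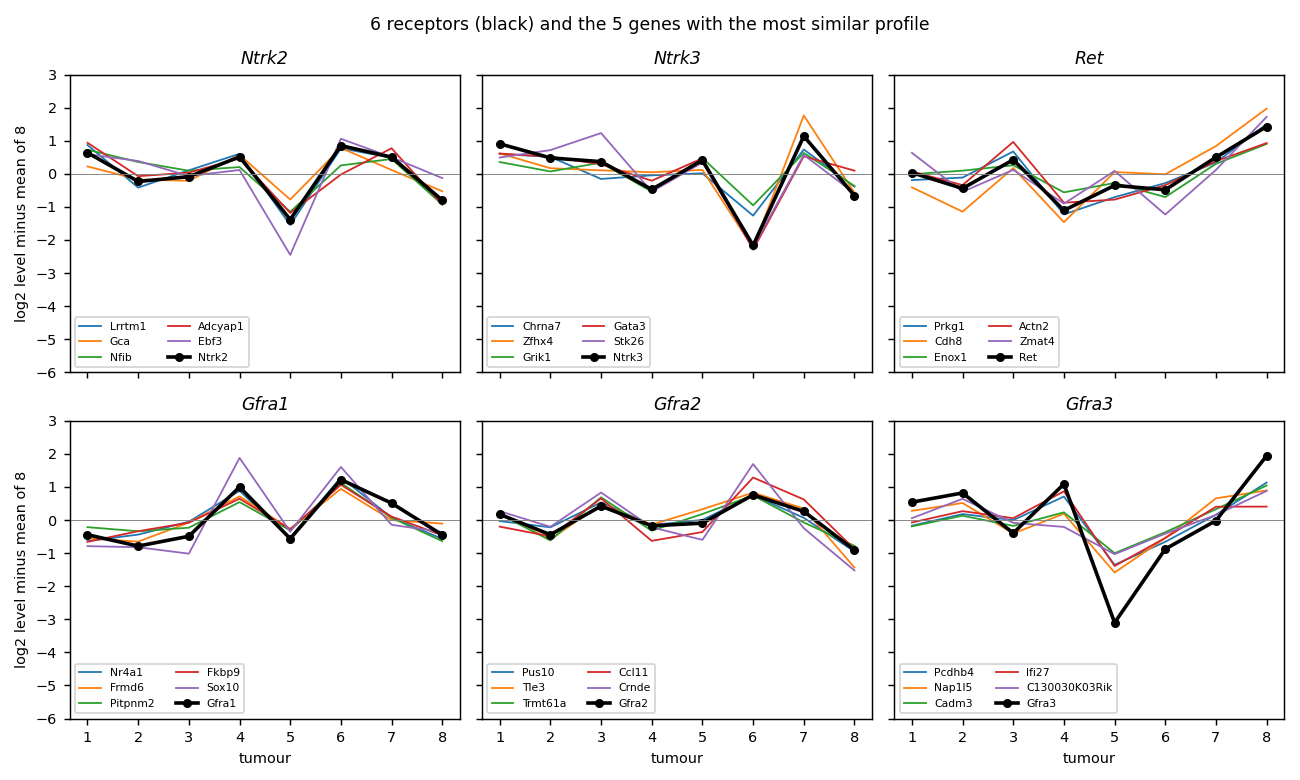
Log2 level minus the mean of 8 tumours (vertical axis) in tumours 1 to 8 (horizontal axis) for 6 receptors (black line with points) and the 5 genes with the highest Pearson's r to each (coloured lines). Lines join values of the same gene and imply no order of tumours; the Gfra3 profile lies further below its mean in tumour 5 (-3.10) than its matched genes do.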

How the data were processed

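RNA of the 8 tumours, isolated with Trizol, was biotin-labelled and hybridised to Affymetrix arrays, 1 per tumour. The deposited values are log2 levels per probe set, for which the authors used Partek 6.5 and RMA, per the submitters' processing notes; which tool did which step is not stated. That the scale is log2 follows from the values (2.07 to 13.61). Annotation and build: not given in the sources used here. No molecules are counted on an array, and with 8 arrays their number limits the precision.

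Of 41345 probe sets, 23521 carry 1 gene symbol in the platform annotation, 1814 several and the rest none, and genes were taken from those with 1, by the highest mean (22180 genes). Chromosomes came from RefSeq by Entrez identifier. Levels were tested against background with limma 3.58.1 and R 4.3.3 (moderated variance, trend and robust prior) on the level minus the array's background, and the procedure was tested on simulated data. Relations used exact permutation in Python 3.11.15 with numpy 2.4.6. Of the 67 pathway genes fixed, 59 had a value, and the rest are not analysed here.

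The members, lists, tests and alternatives were chosen with earlier results of these data known. Named genes are the receptors, all measured ligands and Ret partners, the 3 called genes with the largest SD of each other list with the first 2 of each marker list, and the 5 most similar genes of each receptor with an SD of at least 0.5. Some of these are given only in part, and the relations printed were chosen after their values were seen. Alternatives were the mean of a gene's probe sets, a new quantile normalization, lower backgrounds, a plain variance prior and leaving out tumours.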

Additional observations from a re-analysis of the deposited data

Results flagged for a closer look

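None of the 9 receptors had a tumour standing apart from the other 7 by Dixon's criterion for 8 values. Of the 95 genes checked, receptors included, 10 did. Chance flags about 1 in 20 groups of values, but most of these genes were chosen for a large SD or for a profile like a receptor's, so the count is not to be read against that share. In tumour 6, the lowest of the 8 by a wide gap were Tfap2b (4.88, others 10.39 to 11.63), Dbh (5.72, others 9.87 to 11.43), Gata3 (6.93, others 9.01 to 9.83), Gab2 (8.90, others 10.37 to 10.89) and Prrxl1 (6.75, others 8.09 to 9.11), and the highest were Chat (7.21, others 5.02 to 6.04) and Pou4f1 (7.33, others 4.64 to 5.64). In tumour 5, Ebf3 was lowest (6.999, others 9.32 to 10.51), and Krt14 (9.13, others 4.82 to 5.29) and Krt10 (7.68, others 6.14 to 6.75) were highest. These are the tumours lowest in Ntrk3 and in Gfra3 and Ntrk2.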

How the results depend on the processing

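The number of receptors above background was 8 when any 1 tumour was left out, after a new quantile normalization, with the plain variance prior and without tumours 4 and 6, 7 when a gene's probe sets were averaged, which turned Gfra1 to -0.33, and 9 with the lower backgrounds, against which Ngfr was 0.65 (90th percentile) and 2.17 (median) above. Over all genes the count was 20163 against the median background. Pathway genes called ranged from 50 to 58. Leaving out 1 tumour moved the receptors with a range of at least 2 between 3 and 5, relations between receptors that passed between 0 and 1 and relations with marker lists that passed between 0 and 1; without tumours 4 and 6 the first was 2. Some correlations changed sign when 1 tumour was left out: Ntrk3 with the sympathetic list (-0.15 without tumour 6, 0.85 at the other end, and -0.40 without tumours 4 and 6), Ret with Gfra2 (0.41 without tumour 8, -0.50 at the other end) and Ret with Gfra3 (-0.13 without tumour 8, 0.60 at the other end). The smaller number of tumours is part of these changes, and no other cause was tested. Each adjustment covers the relations of a single setting and not the choice among settings. No paired analysis was possible because there is 1 group.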
